A study of Ovis aries with 24 samples.

Results

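SLCO4A1 is a membrane carrier of the organic anion transporting polypeptide family, and its messenger RNA was followed here in 2 tissues of preterm lambs, the liver and the white matter that borders the lateral ventricles of the brain (periventricular white matter, PVWM). The gene was selected on its measured levels, which were much higher in treated animals of both tissues, so these levels are a description. SLCO2A1 and SLCO3A1 were taken as family context. These are 3 of the 27716 entries of each count table, and the family has 10 entries in all. All 3 genes passed the filter on low counts in both tissues, but SLCO4A1 passed it in liver only through ventilated libraries.

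Carriers of this family take amphipathic organic anions into cells, among them thyroid hormones, prostaglandins, steroid conjugates and bile acids. The SLCO4A1 protein (OATP4A1) carries thyroid hormone, taurocholate and prostaglandins in human and rat cells and is found in many tissues. The family members restricted to hepatocytes serve the clearance of bile acids and drugs from blood, whereas SLCO1C1 takes thyroxine across the blood-brain barrier.

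RNA was sequenced after poly-A selection from 12 libraries per tissue, 4 animals for each of 3 groups. Budesonide animals were mechanically ventilated and were given poractant alfa, a lung surfactant of porcine origin, into the trachea at 2.5 mL/kg, and with it the synthetic glucocorticoid budesonide at 0.25 mg/kg. Surfactant animals were ventilated and received the same surfactant at 2.5 mL/kg alone, and unventilated animals received neither drug. Both ventilated groups thus share ventilation and surfactant, and no group separates these. Ventilated lambs were at 126 days of gestation, apart from surfactant animal 007 and budesonide animal 054 at 127 days, which were also the only males among them. Unventilated lambs were at 127 or 128 days, with 2 labelled males in each tissue. No sex is given for animal 061 in PVWM or for animal 060 in liver, although animal 060 is labelled female in PVWM. Of 13 animals, 11 gave both tissues, and every library within a tissue came from a separate animal.

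Total counts per library were 16.1 to 18 M (1e6) with budesonide, 17.6 to 23.2 M with surfactant and 16.4 to 19.4 M without ventilation in liver. In PVWM they were 16 to 17.5 M, 14.9 to 16.4 M and 15.7 to 16.1 M in the same order of groups. Levels are given as counts per 1e6 counts (CPM) after scaling within each tissue. They are not divided by transcript length, so levels of different genes are not compared. Hepatocyte markers were abundant in every liver library, and astrocyte, neuron and oligodendrocyte markers were all present in PVWM. The summed oligodendrocyte markers of PVWM surfactant animal 051 were at 16950 CPM, whereas the highest other library was at 3666 CPM. In bulk tissue, fewer cells of a type and less RNA per cell cannot be told apart.

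In liver, SLCO4A1 showed one of the largest differences of ventilated animals and was close to undetected without ventilation. Budesonide animals 031, 048, 050 and 054 had 847, 722, 282 and 689 CPM of SLCO4A1 in liver. Surfactant animals 007, 032, 049 and 051 had 152, 378, 448 and 929 CPM. Unventilated animals 057, 058, 059 and 060 had 0.723, 0.867, 0.0588 and 0.357 CPM. Every ventilated animal lay far above every unventilated one, while the 2 ventilated groups overlapped, with the highest and the lowest ventilated value both in the surfactant group.

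The unventilated values of SLCO4A1 in liver rested on 15, 19, 1 and 8 counts, so their precision is low. Such counts alone would not have passed the liver filter, which the gene met through the ventilated libraries. The single count of animal 059 has an exact 95% Poisson interval of 0.0253 to 5.57 counts, which covers counting error only. The ventilated libraries held 2731 to 18056 counts of the gene. The group means were 635 ± 245 CPM with budesonide, 477 ± 327 CPM with surfactant and 0.501 ± 0.365 CPM without ventilation (SD, n = 4 each). In relative terms animals of a group differed widely, with coefficients of variation of 38.6% with budesonide, 68.6% with surfactant and 72.8% without ventilation.

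By group means, SLCO4A1 in liver was 1266-fold higher in budesonide than in unventilated animals and 951-fold higher in surfactant than in unventilated animals. The fitted log2 differences were 10.25 ± 0.79 for budesonide against unventilated and 9.84 ± 0.78 for surfactant against unventilated (± SE). Ordered from the largest increase among 16824 liver genes, they took places 3 and 5. No test is given for these differences, since they are the values the gene was chosen for. Ranges of both ventilated groups above the unventilated range, as for SLCO4A1, were found in 14.0% of liver genes. With gestational age as a covariate the surfactant difference was 8.66 and the budesonide difference 9.30 on the log2 scale. Age nearly coincides with ventilation in these animals, and the part of age in the difference was not tested.

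**Figure D1:**
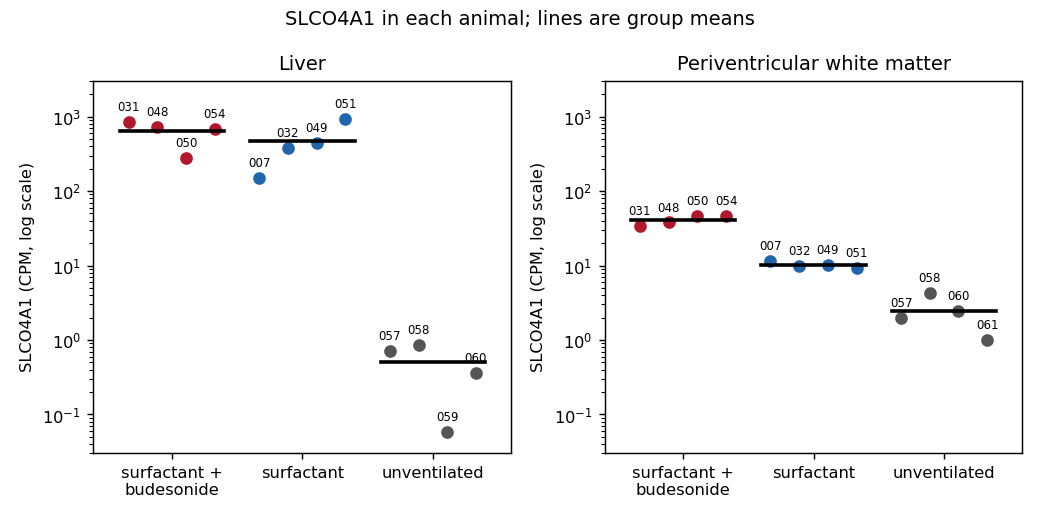
SLCO4A1 in CPM on a log axis for every animal (points, labelled by animal number) of the budesonide, surfactant and unventilated groups, in liver on the left and PVWM on the right, with lines at group means. In liver both ventilated groups lie between 152 and 929 CPM and overlap, whereas in PVWM the 3 groups form separate steps.

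The difference in liver SLCO4A1 between budesonide and surfactant animals was within the spread between animals. The log2 difference of budesonide against surfactant was 0.41 ± 0.52, with a 95% interval of -0.60 to 1.42 and an edgeR adjusted p of 0.620 (Benjamini-Hochberg over all genes tested). The interval allows a moderate rise as well as a fall. SLCO4A1 was tested in this comparison alone, a choice made with its levels known, so the p-value is only a description. Leaving out single animals moved the difference between 0.12 and 0.93. Of the 16824 genes, 11.9% were called in this comparison at an adjusted p under 0.05, the threshold used throughout (4.01% higher and 7.85% lower).

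In PVWM the SLCO4A1 levels were lower than in ventilated livers but separated all 3 groups. Budesonide animals 031, 048, 050 and 054 had 34.1, 37.8, 46.4 and 46.4 CPM. Surfactant animals 007, 032, 049 and 051 had 11.6, 9.86, 10.2 and 9.24 CPM. Unventilated animals 057, 058, 060 and 061 had 1.96, 4.30, 2.44 and 0.991 CPM. No ranges overlapped, and the surfactant animals lay within a narrow band between the other groups.

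The PVWM group means of SLCO4A1 were 41.2 ± 6.22 CPM with budesonide, 10.2 ± 0.995 CPM with surfactant and 2.42 ± 1.39 CPM without ventilation (SD, n = 4 each). The log2 difference was 2.01 ± 0.26 for budesonide against surfactant, a 4.03-fold ratio of means, and 2.08 ± 0.29 for surfactant against unventilated, a 4.21-fold ratio. The 2 steps were thus of like size on the log scale and summed to 4.09 ± 0.30 for budesonide against unventilated, a 17-fold ratio. Leaving out single animals, surfactant animal 051 included, moved the difference of budesonide against surfactant between 1.95 and 2.09. Ordered from the largest increase among 18616 PVWM genes, these differences took places 12, 46 and 10. The same stepwise order with no overlap, unventilated below surfactant below budesonide, was found in 0.655% of PVWM genes, and both ventilated ranges lay above the unventilated range in 2.92%. In liver 0.880% of genes had it, and SLCO4A1 was not one of them.

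The tissues differed in how the level was built up. The liver difference of surfactant against unventilated exceeded the PVWM one by 7.83 ± 0.76 on the log2 scale, and the liver difference of budesonide against surfactant was below the PVWM one by a log2 value of -1.60 ± 0.60. These are descriptions of the gene chosen and carry no test. From high to low, group means of SLCO4A1 ran from liver with budesonide and liver with surfactant, which overlapped, to PVWM with budesonide, PVWM with surfactant, PVWM unventilated and liver unventilated, none of which overlapped its neighbour. Scaling was done separately in each tissue, so this order across tissues is approximate. Without ventilation, SLCO4A1 was at 0.991 to 4.30 CPM in PVWM and 0.0588 to 0.867 CPM in liver.

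Whether animals high in one tissue were high in the other was examined in the 8 ventilated animals, all of which gave both. After removal of group means, the log2 CPM of liver and PVWM were inversely related, with Pearson r = -0.740 (exact permutation p = 0.0191, two-sided, 576 permutations within groups) and Spearman rho = -0.881 (exact permutation p = 0.00868). The p-values of r and rho were not adjusted for each other or for the further settings tried. Animal 007 had the lowest liver and the highest PVWM value of the surfactant group, and animal 051 the reverse. The PVWM values of the surfactant animals spanned only 9.24 to 11.6 CPM, and the part of counting error in them was not tested. Animal 050 had the lowest liver value of the budesonide group. Without animals 007 and 050, the farthest from the median in liver, r was -0.440 (exact permutation p = 0.0833, n = 6) and rho -0.714 (exact permutation p = 0.0556, n = 6), both still negative and no longer past 0.05. Only 36 permutations within groups exist for those 6 animals, so whether the relation rests on animals 007 and 050 cannot be decided from these p-values. Animal 007 was also 1 of the 2 ventilated males of 127 days.

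**Figure D2:**
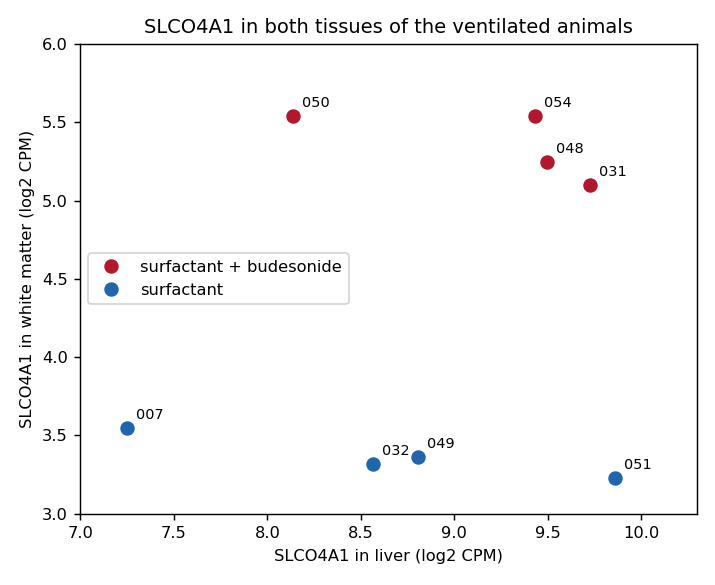
SLCO4A1 in PVWM against SLCO4A1 in liver, both as log2 CPM, for the 8 ventilated animals, with a point per animal coloured by group. PVWM values split by group without overlap, whereas liver values of the groups overlap, and within each group the animal lowest in liver is highest or joint highest in PVWM.

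SLCO2A1, the prostaglandin transporter that brings prostaglandins into cells for breakdown, rose with ventilation in liver and not detectably in PVWM. Its liver levels were 113, 115, 148 and 147 CPM in budesonide animals, 110, 120, 171 and 141 CPM in surfactant animals and 67.2, 64.8, 62.2 and 79.3 CPM in unventilated animals, in the order of animals given for SLCO4A1. Both ventilated groups lay above the unventilated range and overlapped each other. The log2 change was 0.94 ± 0.17 for budesonide against unventilated (edgeR adjusted p = 0.000716) and 0.98 ± 0.17 for surfactant against unventilated (edgeR adjusted p = 0.000834). Both calls held in all 19 alternatives run. Budesonide against surfactant gave -0.05 ± 0.17 (edgeR adjusted p = 0.876).

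In PVWM, SLCO2A1 was at 28.6, 26.4, 20.6 and 26.6 CPM in budesonide animals, 26.6, 44.0, 69.9 and 29.6 CPM in surfactant animals and 34.8, 27.6, 29.2 and 24.8 CPM in unventilated animals. All groups overlapped, and surfactant animal 049 was the highest of the 12. The log2 differences were -0.73 ± 0.25 for budesonide against surfactant, 0.55 ± 0.25 for surfactant against unventilated and -0.19 ± 0.25 for budesonide against unventilated (edgeR adjusted p = 0.235, 0.334 and 0.724). The liver change of surfactant against unventilated was above the PVWM change by a log2 value of 0.52 (edgeR adjusted p = 0.242). Without PVWM surfactant animal 049 this difference was 0.86 (edgeR adjusted p = 0.0194).

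Endothelial cells are a known site of SLCO2A1, and the summed level of 8 endothelial markers was read beside it. In liver this sum was 259 to 292 CPM with budesonide, 394 to 480 CPM with surfactant and 295 to 379 CPM without ventilation. The budesonide range of the sum lay below the unventilated range and the surfactant range above it. In PVWM the sum was 169 to 200, 204 to 324 and 230 to 264 CPM in the same order of groups, and the highest library was surfactant animal 049, also the highest in SLCO2A1. The part of endothelial markers in the SLCO2A1 values of either tissue was not tested.

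SLCO3A1, a carrier of prostaglandins and thyroxine in human cells, had 1 call, in liver, which many alternatives ended. Its liver levels were 5.76, 6.19, 5.06 and 7.01 CPM in budesonide animals, 3.22, 2.82, 3.61 and 4.53 CPM in surfactant animals and 4.05, 5.30, 2.18 and 3.13 CPM in unventilated animals. The budesonide range lay above the surfactant range and just overlapped the unventilated one. The log2 difference was 0.76 ± 0.27 for budesonide against surfactant (edgeR adjusted p = 0.0812) and 0.71 ± 0.27 for budesonide against unventilated (edgeR adjusted p = 0.0428). The second was called, but 12 of 19 alternatives ended that call, including the age covariate and the removal of any 1 of 9 animals. Surfactant against unventilated gave -0.05 (edgeR adjusted p = 0.901).

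In PVWM, SLCO3A1 was at 34.7, 47.6, 33 and 38.6 CPM in budesonide animals, 50.0, 33.5, 35.2 and 29.2 CPM in surfactant animals and 57.3, 39.8, 44.7 and 53.6 CPM in unventilated animals. All groups overlapped, and no comparison of SLCO3A1 in PVWM was called (edgeR adjusted p = 0.270 to 0.945). Of SLCO2A1 and SLCO3A1, 1 was called higher in liver for surfactant against unventilated, where 41.1% of all genes were called (21.6% higher and 19.5% lower). Both were called higher for budesonide against unventilated, where 47.0% of all genes were called (23.3% higher and 23.7% lower). Neither was called for budesonide against surfactant in liver. In PVWM neither was called in any comparison. Over all PVWM genes, 0.978% were called for budesonide against surfactant (0.591% higher and 0.387% lower), 2.05% for surfactant against unventilated (1.35% higher and 0.698% lower) and 8.06% for budesonide against unventilated (4.35% higher and 3.71% lower). Neither of the 2 genes was called for a difference between the tissues, where 3.41% of genes were called for budesonide against surfactant and 25.8% for surfactant against unventilated.

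The family without SLCO4A1 had 7 genes tested in each tissue. In liver 0 were called higher and 1 lower for budesonide against surfactant, where 4.01% of all genes were higher and 7.85% lower. For surfactant against unventilated 2 were higher and 2 lower, where 21.6% of all genes were higher and 19.5% lower. For budesonide against unventilated 3 were higher and 2 lower, where 23.3% of all genes were higher and 23.7% lower. In PVWM 0 were called higher in all 3 comparisons, with 1 lower for budesonide against surfactant, 0 for surfactant against unventilated and 2 for budesonide against unventilated. Over all PVWM genes 0.591%, 1.35% and 4.35% were called higher in these comparisons, and 0.387%, 0.698% and 3.71% lower. The liver counts against unventilated animals include SLCO5A1, which passed the filter only through ventilated libraries.

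SLCO2B1, a broad carrier of steroid sulfates found in hepatocytes and endothelium, fell in both tissues with budesonide. In liver it was at 25.7, 24.6, 22.8 and 26.2 CPM in budesonide animals, 67.0, 61.8, 62.6 and 31.0 CPM in surfactant animals and 162, 94.3, 131 and 83.2 CPM in unventilated animals. The 3 groups did not overlap and descended from unventilated to budesonide, the reverse of the PVWM order of SLCO4A1. The log2 changes were -1.16 ± 0.25 for budesonide against surfactant (edgeR adjusted p = 0.0131), -1.08 for surfactant against unventilated (edgeR adjusted p = 0.00470) and -2.24 for budesonide against unventilated (edgeR adjusted p = 3.57e-05). The surfactant call ended with age as a covariate (edgeR adjusted p = 0.106).

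In PVWM, SLCO2B1 was at 37.0, 30.9, 41.1 and 44.5 CPM in budesonide animals, 78.7, 74.5, 108 and 73.0 CPM in surfactant animals and 89.5, 112, 90.5 and 92.8 CPM in unventilated animals. Budesonide animals lay below all others, while surfactant and unventilated animals overlapped. The log2 change was -1.12 ± 0.14 for budesonide against surfactant (edgeR adjusted p = 0.00386) and -1.33 for budesonide against unventilated (edgeR adjusted p = 0.000103). Surfactant against unventilated gave -0.20 (edgeR adjusted p = 0.553). The macrophage and microglia marker sum of PVWM was also lower with budesonide, at 84.3 to 112 CPM, against 130 to 187 CPM with surfactant and 138 to 155 CPM without ventilation. Its part, and that of the endothelial sum above, in the PVWM values of SLCO2B1 was not tested.

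The budesonide-against-surfactant change of SLCO2B1 was of like size in both tissues, with a liver-minus-PVWM log2 difference of -0.04 (edgeR adjusted p = 0.990). For surfactant against unventilated the liver change was more negative than the PVWM change by a log2 value of -0.80 ± 0.29 (edgeR adjusted p = 0.0461). With the animal as a replicate block this was -0.73 (edgeR adjusted p = 0.101), and 18 of 30 alternatives ended the call.

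SLCO1B3, a hepatocyte uptake carrier of bile acids and bilirubin conjugates, fell with ventilation in liver. It was at 90.5, 61.9, 75.8 and 36.1 CPM in budesonide animals, 113, 90.5, 69.8 and 113 CPM in surfactant animals and 327, 148, 337 and 295 CPM in unventilated animals. Both ventilated groups lay below every unventilated animal and overlapped each other. The log2 change was -2.07 for budesonide against unventilated (edgeR adjusted p = 0.000221) and -1.52 ± 0.31 for surfactant against unventilated (edgeR adjusted p = 0.00221). The surfactant call ended with age as a covariate (edgeR adjusted p = 0.0807). Budesonide against surfactant gave -0.55 (edgeR adjusted p = 0.246).

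SLCO1C1, the thyroxine carrier of the blood-brain barrier, was at 13.5, 7.53, 14.1 and 11.4 CPM in budesonide, 18.6, 15.8, 16.3 and 8.74 CPM in surfactant and 22.6, 26.5, 21.1 and 24.1 CPM in unventilated PVWM. Unventilated animals lay above all ventilated ones. The log2 change was -1.02 ± 0.22 for budesonide against unventilated (edgeR adjusted p = 0.0140), a call that ended with age as a covariate (edgeR adjusted p = 0.265). Surfactant against unventilated gave -0.67 (edgeR adjusted p = 0.173) and budesonide against surfactant -0.35 (edgeR adjusted p = 0.611).

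SLCO5A1, whose cargo is poorly known, was low in liver, with its higher values in ventilated animals. It was at 0.349, 0.459, 0.291 and 0.900 CPM in budesonide animals, 0.389, 1.50, 1.11 and 0.926 CPM in surfactant animals and 0.0963, 0.0913, 0 and 0.0893 CPM in unventilated animals. The ranges of both ventilated groups lay above the unventilated range. The unventilated values rest on 2, 2, 0 and 2 counts, and the gene passed the liver filter only through ventilated libraries, so no test of the liver difference is given. The liver change of surfactant against unventilated exceeded the PVWM change by a log2 value of 3.59 ± 0.60. This difference rests on the same low liver counts and is given without a p-value. SLCO1A2 and SLCO4C1 were called in no comparison, and SLCO6A1 had 0 counts in every library. SLCO1B1, also of this family, had no entry under that symbol in either tissue.

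**Figure D3:**
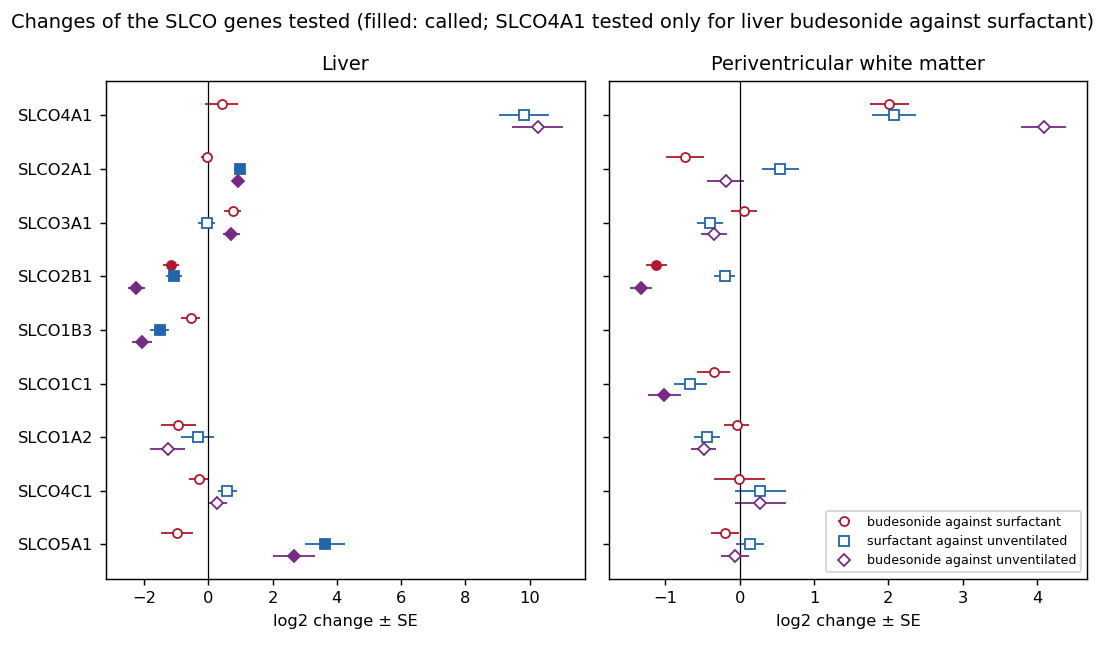
Log2 changes ± SE of the SLCO genes tested in liver (left) and PVWM (right) for the 3 comparisons, with filled symbols for genes called by edgeR. SLCO4A1 stands far to the right except for budesonide against surfactant in liver, SLCO2B1 lies to the left of 0 in both tissues, and SLCO2A1 is called in the 2 liver comparisons with unventilated animals. The filled liver symbols of SLCO5A1 belong to a gene that passed the liver filter only through ventilated libraries. The horizontal scales of the panels differ.

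**Figure D4:**
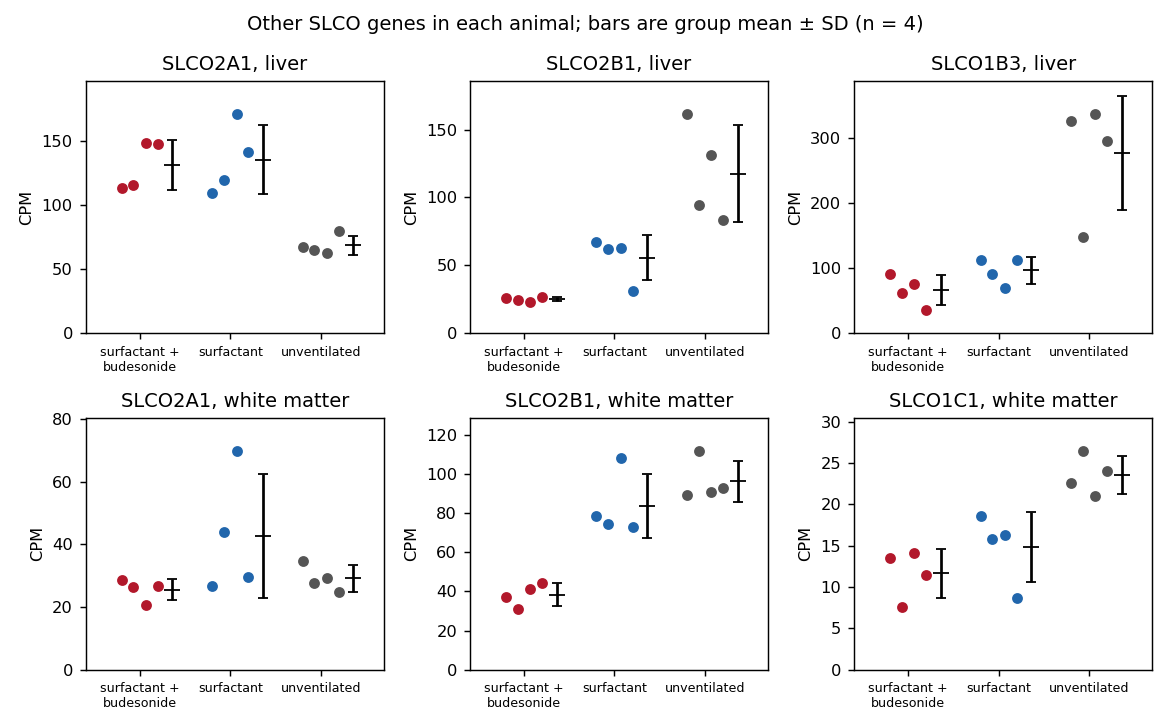
CPM of 4 other SLCO genes in every animal (points), with bars at the group mean ± SD (n = 4) and groups from left to right budesonide, surfactant and unventilated. SLCO2A1 in liver is higher in both ventilated groups, whereas SLCO2B1 in both tissues, SLCO1B3 in liver and SLCO1C1 in PVWM have their highest group mean without ventilation.

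The genes around thyroid hormone, one cargo of SLCO4A1, were counted from a list of transporters, deiodinases, receptors and binding proteins. In liver, of 12 tested, 2 rose and 2 fell for budesonide against surfactant (median log2 change -0.20, against -0.01 over all genes), where 11.9% of all genes were called. Of the 12, 3 rose and 3 fell for surfactant against unventilated (-0.32, against -0.02), where 41.1% of all genes were called, a like share. For budesonide against unventilated 3 rose and 6 fell (-0.68, against 0.00), where 47.0% were called. In PVWM, of 13 tested, 2 rose and 0 fell for both budesonide against surfactant and surfactant against unventilated, and 3 rose and 1 fell for budesonide against unventilated. Over all PVWM genes 0.978%, 2.05% and 8.06% were called in these comparisons. The 1 that fell in PVWM was SLCO1C1, which is also counted in the family.

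SLC7A8, an amino acid exchanger that also carries thyroid hormone, rose stepwise like SLCO4A1 in PVWM and, unlike it, also between the ventilated groups in liver. In liver its mean was 46.8 CPM with budesonide, 3.30 CPM with surfactant and 1.11 CPM without ventilation, with a log2 change of 3.82 ± 0.36 for budesonide against surfactant (edgeR adjusted p = 0.000311). In PVWM its mean was 112 CPM with budesonide, 69.5 CPM with surfactant and 42.1 CPM without ventilation. The PVWM log2 change was 0.69 ± 0.12 for budesonide against surfactant (edgeR adjusted p = 0.0212) and 0.72 ± 0.12 for surfactant against unventilated (edgeR adjusted p = 0.00932); the first call ended without any 1 of 5 animals and the second with age as a covariate (edgeR adjusted p = 0.445).

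The deiodinases also moved. DIO2, which activates thyroxine to triiodothyronine, averaged 552 CPM with budesonide, 225 CPM with surfactant and 69.5 CPM without ventilation in PVWM, a log2 change of 2.99 ± 0.30 for budesonide against unventilated (edgeR adjusted p = 4.96e-05). For surfactant against unventilated it was 1.69 ± 0.28 (edgeR adjusted p = 0.00858), a call that ended with age as a covariate (edgeR adjusted p = 0.549). DIO3, which inactivates thyroid hormone, averaged 17 CPM with budesonide, 3.03 CPM with surfactant and 0.235 CPM without ventilation in liver, with a log2 change of 2.48 ± 0.48 for budesonide against surfactant (edgeR adjusted p = 0.00860). THRB, a nuclear thyroid hormone receptor, fell in liver to 3.87 CPM with budesonide and 8.34 CPM with surfactant, against 14.6 CPM without ventilation, a log2 change of -1.91 ± 0.27 for budesonide against unventilated (edgeR adjusted p = 0.000136).

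Prostaglandins are cargo of SLCO2A1 and SLCO4A1, and genes of their synthesis, breakdown and receptors were counted next. Of 17 tested in liver, 0 rose and 4 fell for budesonide against surfactant (median log2 change -0.69, against -0.01 over all genes), where 4.01% of all genes rose and 7.85% fell. Surfactant against unventilated had 7 that rose and 4 that fell (0.74, against -0.02), where 21.6% of all genes rose and 19.5% fell. For budesonide against unventilated 2 rose and 6 fell (-0.06, against 0.00), where 23.3% rose and 23.7% fell. In PVWM, of 16 tested, 0 were called in either direction for budesonide against surfactant and for surfactant against unventilated, and 1 rose and 1 fell for budesonide against unventilated. With 0.978%, 2.05% and 8.06% of all PVWM genes called, these counts are near the share over all genes.

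PTGS2, the inducible cyclooxygenase, averaged 7.94 CPM with budesonide, 414 CPM with surfactant and 6.93 CPM without ventilation in liver. It fell with budesonide against surfactant by a log2 change of -5.70 ± 1.18 (edgeR adjusted p = 0.0110) and rose with surfactant against unventilated by 5.90 ± 1.19 (edgeR adjusted p = 0.00221). The fall ended as a call with sex as a covariate (edgeR adjusted p = 0.0581). HPGD, which breaks down prostaglandins once they are taken up, averaged 186 CPM with budesonide, 347 CPM with surfactant and 139.6 CPM without ventilation, with a log2 change of 1.32 ± 0.26 for surfactant against unventilated (edgeR adjusted p = 0.00204). PTGER3, a receptor for prostaglandin E, rose in both comparisons with unventilated livers, by 2.99 ± 0.48 for budesonide (edgeR adjusted p = 0.000331) and 2.89 ± 0.48 for surfactant (edgeR adjusted p = 0.000677), and the surfactant call ended with age as a covariate (edgeR adjusted p = 0.0523). PTGS2 and HPGD thus had their highest mean with surfactant alone.

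Of the other carriers of bile acids and organic anions, 13 were tested in liver. For budesonide against surfactant 0 rose and 4 fell (median log2 change -0.79, against -0.01 over all genes), where 4.01% of all genes rose and 7.85% fell. In surfactant against unventilated livers 3 rose and 6 fell (-0.82, against -0.02), where 21.6% of all genes rose and 19.5% fell. For budesonide against unventilated 1 rose and 9 fell (-1.59, against 0.00), where 23.3% rose and 23.7% fell. SLC22A7, a hepatocyte organic anion transporter, averaged 34.5 CPM with budesonide, 84.6 CPM with surfactant and 356 CPM without ventilation, with a log2 change of -3.37 ± 0.25 for budesonide against unventilated (edgeR adjusted p = 2.86e-06). In the same comparison ABCC2, a canalicular export pump, fell with a log2 change of -3.30 ± 0.37 (edgeR adjusted p = 3.42e-05), and ABCB11, the bile salt export pump, with one of -1.81 ± 0.22 (edgeR adjusted p = 5.10e-05). In PVWM, of 9 tested, 0 rose and 1 fell for budesonide against surfactant, 1 rose and 0 fell for surfactant against unventilated, and 2 rose and 0 fell for budesonide against unventilated, where 0.978%, 2.05% and 8.06% of all PVWM genes were called.

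The genes whose profile was nearest to SLCO4A1 were sought by the root mean square difference of log2 CPM, each gene centred on its own mean. They were selected for their likeness, so their levels are given without tests. In liver, over 12 libraries and 12608 eligible genes, they were ATP6V1C2, a subunit of the vacuolar proton pump (difference 1.16), SH2D4B (1.23), PTX3, a secreted pentraxin of innate immunity (1.27), SDS, the serine dehydratase of amino acid breakdown (1.41), and SPP1, encoding osteopontin (1.70). ATP6V1C2 in liver was at 106 to 155 CPM with budesonide, 37.4 to 258 CPM with surfactant and 0.193 to 0.529 CPM without ventilation. Animals 007 and 051 marked the low and the high end of its surfactant group, as for SLCO4A1.

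In PVWM, over 13701 eligible genes, the nearest were MEDAG (0.60), ARRDC2 (0.61), PLA1A, a phospholipase (0.62), FKBP5, a co-chaperone bound to the glucocorticoid receptor (0.63), and PDK4, a kinase that restrains pyruvate oxidation (0.65). The order depends on the measure: by mean absolute difference PI15 came first (0.44) and MEDAG was not in the list. FKBP5 in PVWM was at 401 to 478 CPM with budesonide, 113 to 183 CPM with surfactant and 14.1 to 21.8 CPM without ventilation. In liver FKBP5 kept 3 separate groups, at 457 to 526 CPM with budesonide, 61.9 to 151 CPM with surfactant and 13.9 to 43.6 CPM without ventilation, whereas the ventilated groups of SLCO4A1 overlapped there. PLA1A in liver had overlapping groups, at 248 to 425, 242 to 438 and 323 to 506 CPM in the same order.

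Over both tissues and 24 libraries, PDK4 was the nearest of 11851 genes (1.36), followed by ATP6V1C2 (1.46), SDS (1.58), PTX3 (1.62) and CP, encoding ceruloplasmin (1.69). By mean absolute difference PDK4 was again the nearest, and PI15 stood in the list in place of CP. PDK4 in liver was at 4298 to 7129 CPM with budesonide, 2195 to 6470 CPM with surfactant and 37.9 to 64.7 CPM without ventilation, and in PVWM at 252 to 442, 95.7 to 167 and 9.84 to 24.6 CPM. It thus had the overlap of the ventilated groups in liver and the 3 separate steps in PVWM that SLCO4A1 had. The liver differences are larger and weigh more in this ranking: ATP6V1C2 in PVWM was at 2.31 to 5.63, 3.09 to 5.18 and 2.11 to 4.82 CPM, with no separation of groups.

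**Figure D5:**
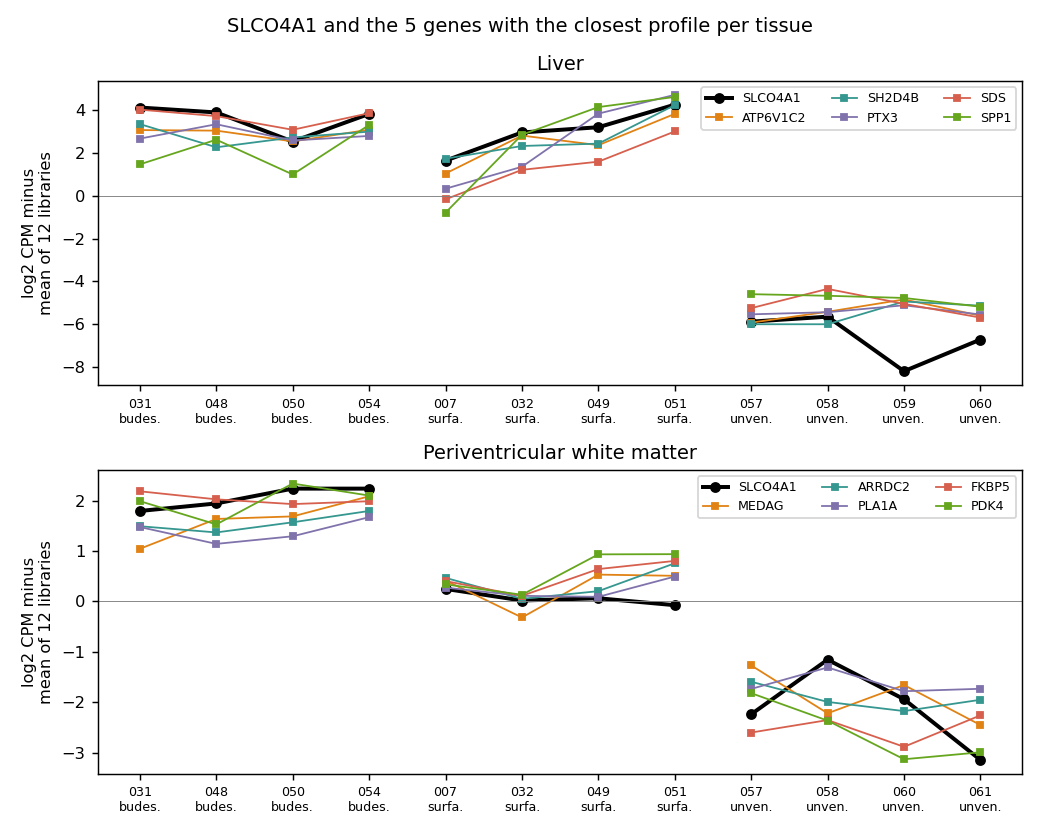
Log2 CPM minus the mean of 12 libraries for SLCO4A1 (black) and the 5 genes with the nearest profile in liver (top) and in PVWM (bottom), by animal, with groups from left to right budesonide, surfactant and unventilated. In liver the genes share the low unventilated level and the low value of surfactant animal 007, and in PVWM they descend in 3 steps.

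Among markers of other cell types, the summed neutrophil markers of liver were highest with surfactant alone. Of 6 tested, 3 rose and 1 fell for budesonide against unventilated (median log2 change 1.00), where 23.3% of all genes rose and 23.7% fell. Of the same 6, 5 rose and 0 fell for surfactant against unventilated, where 21.6% of all genes rose. For budesonide against surfactant 0 rose and 1 fell (median log2 change -0.76), where 4.01% of all genes rose and 7.85% fell. The summed level of the neutrophil markers was 99.4 to 156 CPM with budesonide, 216 to 401 CPM with surfactant and 98.7 to 165 CPM without ventilation. The budesonide and unventilated sums overlapped. The part of neutrophil markers in the liver values of SLCO4A1 was not tested. In PVWM the neutrophil sum was 1.68 to 3.52 CPM with budesonide, 1.64 to 10.8 CPM with surfactant and 2.91 to 3.79 CPM without ventilation. The hepatocyte sum in PVWM did not exceed 263 CPM, and that maximum was in an unventilated animal.

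The genes next to SLCO4A1 in the reference gene order were read last. Of the 5 annotated neighbours on each side, COL9A3, OGFR and MRGBP were tested in both tissues and GATA5 in liver. COL9A3, a collagen chain, rose in liver to 10.1 CPM with budesonide and 5.30 CPM with surfactant, against 0.935 CPM without ventilation, by log2 changes of 3.42 ± 0.46 for budesonide (edgeR adjusted p = 9.65e-05) and 2.50 ± 0.45 for surfactant (edgeR adjusted p = 0.00111). In PVWM COL9A3 had edgeR adjusted p-values of 0.230 to 0.871 over the 3 comparisons. GATA5, a transcription factor, fell in liver with a log2 change of -2.13 for budesonide against unventilated (edgeR adjusted p = 0.00150), a comparison in which 47.0% of all liver genes were called. MRGBP was called in neither tissue. OGFR was called for budesonide against unventilated in liver alone, at 0.47 ± 0.18 on the log2 scale (edgeR adjusted p = 0.0439).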

How the data were processed

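The count tables, of 12 libraries per tissue, were read as deposited: whole-number counts per gene, which the authors had not normalized. The submitters' processing notes name Bowtie2, featureCounts and edgeR; versions, settings and genome build are not given in the sources used here. Whether counting used strand is not given either, so genes that overlap others cannot be told apart.

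The statistics were run in R 4.3.3 (edgeR 4.0.16, DESeq2 1.42.0, limma 3.58.1). For each tissue separately, filterByExpr left 16824 liver and 18616 PVWM genes, library sizes were adjusted by TMM, and glmQLFit (robust) was given the 3 groups together. Calls needed a Benjamini-Hochberg adjusted p below 0.05, taken over every gene of the fit. Tissue differences came from 1 fit of all 24 libraries (20010 genes). Log2 CPM used a prior count of 2.

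Library numbers of liver and PVWM are animal numbers in the labels, so equal numbers are the same animal. Over deviations from group means, liver and PVWM of the 11 animals with both tissues correlated at 0.0795 to 0.251 (median 0.132), against a median of -0.0127 for different animals. The animal as a replicate block was an alternative.

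Members, lists and the rule for named genes were chosen with earlier results of these data known. Named were the 3 members, every family gene, up to 4 called genes per other list and comparison with the smallest adjusted p, the 5 nearest profiles per tissue and over both (mean of at least 1 CPM), and the 5 neighbours on each side in the ARS-UI_Ramb_v3.0 annotation. Not every gene that met the rule is described. The lists share genes: SLCO1C1 is in the family and the thyroid hormone list. SLC10A1 is in the thyroid hormone list and that of other carriers, and ABCC4 in the prostaglandin list and that of other carriers. Sequences were not used here.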

Additional observations from a re-analysis of the deposited data

Results flagged for a closer look

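SLCO2B1 had 3 libraries that stood apart from the other 3 of their group by Dixon's test, which flags about 1 in 20 groups by chance; 44 groups were examined and these 3 were found. In liver, surfactant animal 051 was at 31.0 CPM, whereas the other surfactant animals were at 61.8 to 67.0 CPM. In PVWM, surfactant animal 049 was at 108 CPM, whereas the others were at 73.0 to 78.7 CPM, and unventilated animal 058 was at 112 CPM, whereas the others were at 89.5 to 92.8 CPM. Surfactant animal 051 was also the highest of its group for SLCO4A1 in liver, and PVWM surfactant animal 049 was the highest for SLCO2A1 and for the endothelial marker sum.

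The change of surfactant against unventilated differed between the tissues for 2 family genes. SLCO2B1 fell more in liver than in PVWM, by a log2 difference of -0.80 ± 0.29 (edgeR adjusted p = 0.0461), a call lost with the animal as replicate block (-0.73, edgeR adjusted p = 0.101) and in 18 of 30 alternatives in all. For SLCO5A1 the liver change was above the PVWM change by 3.59 ± 0.60, on 0 to 2 counts in the unventilated livers, so no p-value is given. Among all genes 25.8% were called for such a difference.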

How the results depend on the processing

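The differences of SLCO4A1 kept their direction in every alternative run. For surfactant against unventilated in liver, its log2 difference was 8.66 with gestational age as a covariate and 9.27 to 10.22 without single animals. Of 16 results for SLCO2A1 and SLCO3A1, 3 were called: 2 held throughout, 1 was lost under some alternatives, and of the 13 not called 2 gained a call. SLCO3A1 for budesonide against unventilated in liver lost its call with the age covariate (0.42), without the filter (0.71), with total counts in place of scaling (0.48) and without single animals (0.53 to 0.94). SLCO3A1 for budesonide against surfactant in liver was called by DESeq2 (0.74, adjusted p = 0.0462). SLCO2A1 for the tissue difference of surfactant against unventilated gave 0.35 to 0.86 without single animals. Differences near 0 changed sign: SLCO2A1 for budesonide against surfactant in liver (0.062 with total counts, -0.14 to 0.077 without single animals), SLCO3A1 for surfactant against unventilated in liver (-0.23 to 0.18) and SLCO3A1 for budesonide against surfactant in PVWM (-0.059 to 0.24). Of 61 other called results, 32 held throughout, 29 were lost under some and 0 reversed. The causes were not tested.

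Counts of called genes moved more. For budesonide against surfactant in liver 1994 genes were called, 3170 by DESeq2, 884 with only the groups compared, 632 with sex as a covariate and 1007 to 2838 without single animals (lowest without budesonide 031, budesonide 048 or surfactant 049). In PVWM 182 were called, 562 by DESeq2, 69 with only the groups compared, 47 with sex and 66 to 207 without single animals. For surfactant against unventilated, liver gave 6911 genes and 1398 with age, and PVWM 382, 819 by DESeq2, 174 with only the groups compared, 15 with age and 173 to 501 without single animals (lowest without unventilated 060 or 061). For budesonide against unventilated, liver gave 7903 and 2958 with age, and PVWM 1501, 346 with age and 998 to 1657 without single animals (lowest without budesonide 054). The tissue difference of budesonide against surfactant gave 683 genes, 428 with the animal as replicate block, 1320 by DESeq2 and 419 to 1476 without single animals. With the replicate block the tissue differences of SLCO2A1 and SLCO3A1 stayed uncalled. SLCO1A2, SLCO1B3, SLCO1C1 and SLCO4C1 were not examined with it. At these depths the unventilated level of SLCO4A1 in liver, 1 to 19 counts, limits the precision of its fold.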
